A study of Mus musculus with 24 samples.

Results

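The comparison described here set kidneys of Nlrp3 knockout mice given glyoxylate against kidneys of wild-type mice given saline, and asked which gene classes still differed from the untreated wild-type level and which lay near it. The difference is between 12 of the 24 libraries of the study, 6 per group, chosen by their labels, and was read over all 28450 features of the deposited table. All mice were C57BL/6. The glyoxylate knockout group carried the genotype written NLPR3-/- in the labels, read here as an Nlrp3 knockout, and received glyoxylate acid (Gly) at 75 mg/kg per day in 200 µl into the peritoneum on day 1 to day 7, and the saline wild-type group received saline on the same days. Kidneys were collected on day 7. Wild-type mice given the same glyoxylate and knockout mice given saline, 6 libraries each, are otherwise given as values beside the comparison, but all 24 libraries entered the fit and the filter on low values, so these 12 also bear on the standard errors, intervals and calls. The labels used here give neither the knockout allele, nor whether littermates were used, nor the sex of the animals. The groups compared differ in both genotype and treatment, and the parts of these cannot be told apart in this contrast.

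Glyoxylate is converted to oxalate, which forms calcium oxalate crystals in the tubule and injures its cells. NLRP3 is a cytosolic sensor that assembles with the adaptor ASC (Pycard) and caspase-1 into an inflammasome, which matures IL-1β and IL-18. The proximal tubule, the bulk of the kidney cortex, runs on fatty acid oxidation and makes glucose, and injured tubules are known to shed these functions, re-enter the cell cycle and express injury markers such as KIM-1.

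Values were FPKM (fragments scaled by transcript length and mapped fragments) as deposited, and every difference below is glyoxylate knockout minus saline wild type on the log2(FPKM + 1) scale unless stated, which understates the change of weakly expressed genes. The sequencing depth is unknown. FPKM summed to between 453591 and 529091 in the 12 libraries. Ddx3y, a Y-linked RNA helicase gene, was expressed in all 12, from 8.87 to 10.8 FPKM in saline wild type and from 8.74 to 12.9 FPKM in glyoxylate knockout, whereas saline knockout ranged from 0 to 9.33 FPKM with a median of 0.0131. Nlrp3 itself ranged from 0.0397 to 0.0886 FPKM in saline wild type and from 0.119 to 0.144 FPKM in glyoxylate knockout, so the groups did not overlap (exact permutation test, p = 0.0022, adjusted over 4 tests p = 0.0029, the smallest this design allows before adjustment being 0.0022). It ranged from 0.361 to 0.896 FPKM in glyoxylate wild type. The residual signal does not check the knockout label, because the deleted part of the gene is not given and Nlrp3 lay under the filter on low values.

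Of 13020 features tested with limma (at least 1 FPKM in at least 6 of the 24 libraries), 5943 (45.6%) were called at a Benjamini-Hochberg adjusted p under 0.05, 5068 higher (38.9%) and 875 lower (6.72%). At least 1 log2 unit separated 526 of those higher (4.04%) and 128 of those lower (0.983%). A feature was counted as near the saline wild-type level when the 95% interval of its difference lay wholly within 0.5 log2 units of 0, which held for 6782 features (52.1%), of which 1303 also passed the test with a small difference, so near and called counts can share genes. The remaining 1598 were neither called nor bounded. The median difference over all tested features was 0.20. After median-ratio scaling of the libraries it was -0.01, with 2197 features higher (16.9%), 2121 lower (16.3%) and 8095 near (62.2%). List medians below are therefore read against 0.20, and near counts against 52.1%. Higher and lower counts are read against 38.9% and 6.72%, and scaled counts against the scaled shares. A gene could pass the filter through 1 group alone, so each list count covers its tested members.

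**Figure D1:**
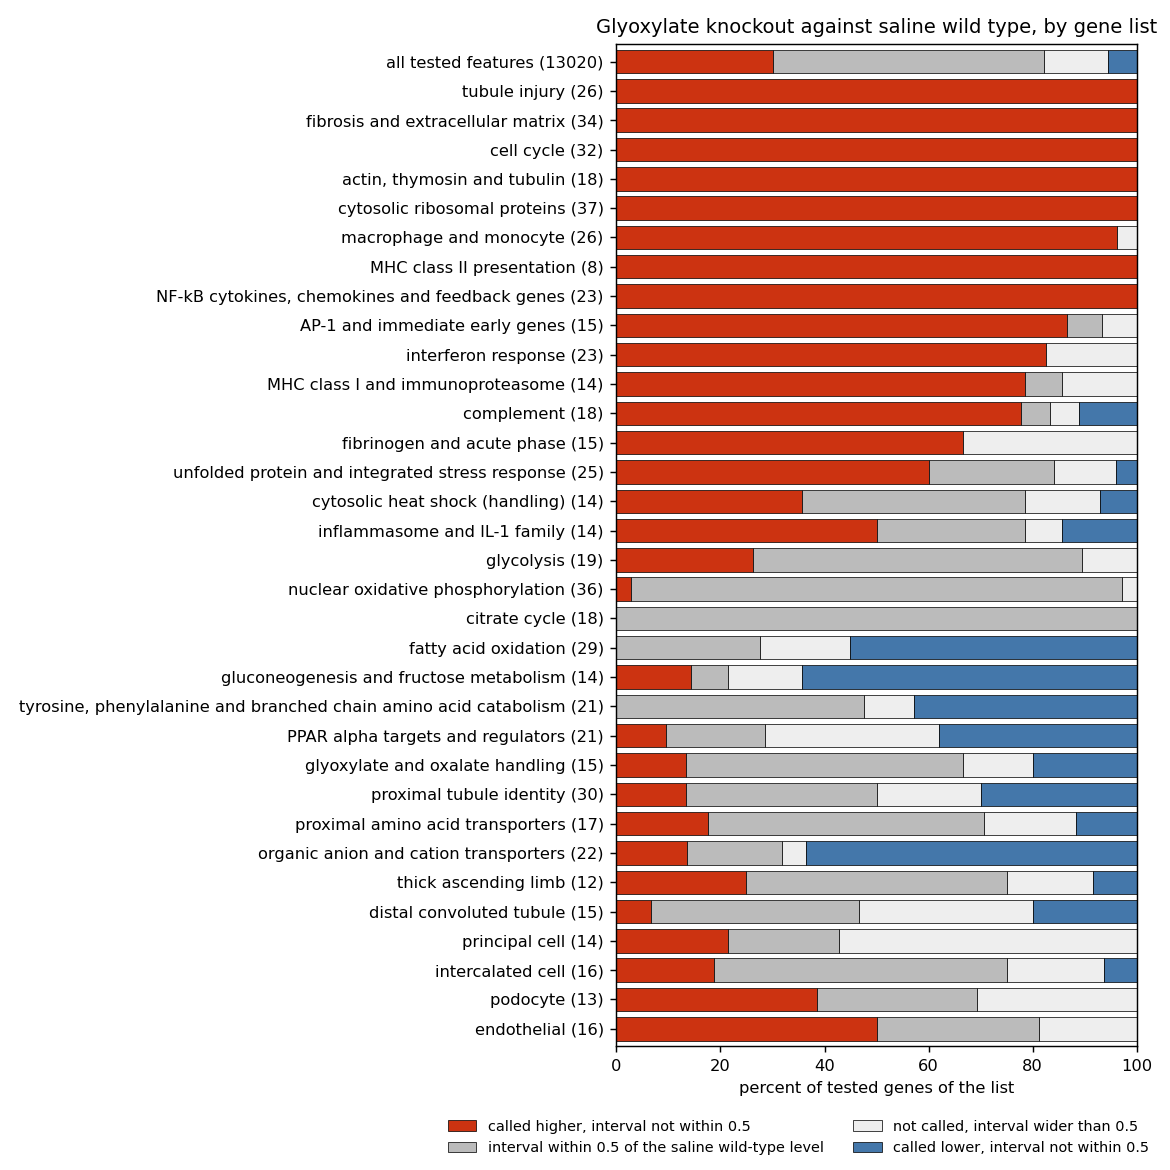
Share of the tested genes of each list (number tested in parentheses) in 4 classes, in percent: called higher or called lower with an interval reaching beyond 0.5 log2 units, near the saline wild-type level, and neither. Injury, matrix, cell cycle, cytoskeleton and ribosomal lists were wholly in the higher class, the citrate cycle list was wholly in the near class, and fatty acid oxidation held 19 of 29 genes called lower, 3 of them also near.

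Tubule injury genes stayed far above the untreated wild-type level. All 26 genes of the injury list were tested and all 26 were higher (background 38.9%), with a median of 1.62 and a range of 0.78 to 5.61, and in all 26 every glyoxylate knockout library lay above every saline wild-type library (28.0% of all features). Havcr1, which encodes the injury receptor KIM-1, had the largest rise among named genes: 0.418, 0.539 and 1.55 FPKM (lowest, median and highest) in saline wild type against 39.1, 76.7 and 207 FPKM in glyoxylate knockout. The difference was 5.61 ± 0.29 (SE, adjusted p = 2.86e-12). Lcn2, the iron carrier NGAL secreted by stressed tubules, went from a median of 3.99 FPKM (1.02 to 5.40) to 129 FPKM (61.4 to 183), a difference of 4.83 ± 0.28 (adjusted p = 1.24e-11). The groups did not overlap for either gene, and the knockout libraries differed widely among themselves for Havcr1.

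Among 14 crystal binding and modulating genes tested, 7 were higher (background 38.9%) and 1 lower, with a median of 0.29. Spp1, osteopontin, a secreted protein of that list that binds calcium oxalate, was at 342, 431 and 447 FPKM in saline wild type and at 3590.3, 4799 and 6504 FPKM in glyoxylate knockout (difference 3.54 ± 0.17, adjusted p = 1.29e-12). Saline knockout held 461 FPKM of Spp1 in the library that expressed Ddx3y and 1014 to 1118 FPKM in the others. The tissue inhibitor of metalloproteinases Timp1 was nearly silent in saline wild type, at 0.0763 to 0.390 FPKM, and reached 5.67 to 19.8 FPKM in glyoxylate knockout (3.09 ± 0.20, adjusted p = 7.11e-11). Krt20, an epithelial keratin, and Cd44, a hyaluronan receptor, likewise went from under 1 FPKM in every saline wild-type library to medians of 6.51 and 3.38 FPKM. Ceruloplasmin (Cp) rose by 2.82 and the annexin gene Anxa2 by 1.53. None of these genes overlapped between the groups, and Krt20, Spp1, Timp1, Cp, Anxa2 and Cd44 kept their calls in every alternative analysis in which they were tested.

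**Figure D2:**
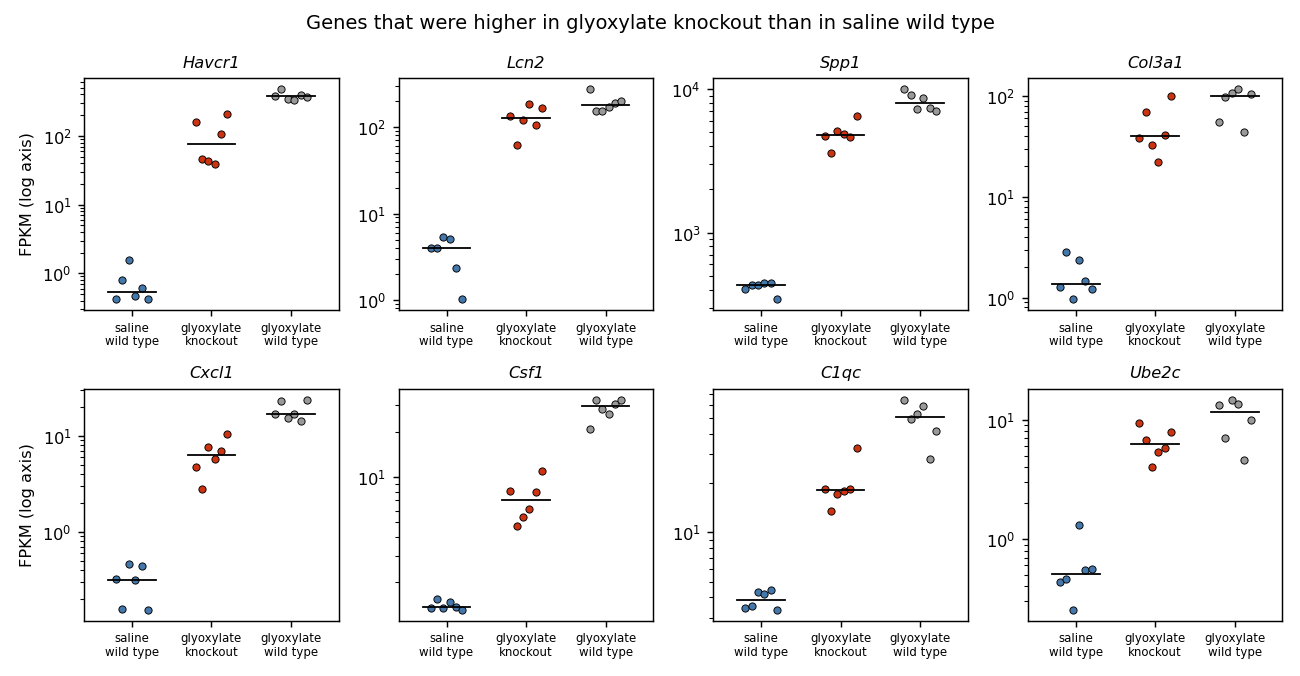
FPKM of 8 genes (log axes) in each library of saline wild type, glyoxylate knockout and glyoxylate wild type; points are libraries and lines are medians. In all 8 panels every glyoxylate knockout library lies above every saline wild-type library. For Havcr1, Spp1, Cxcl1 and Csf1 every one also lies under every glyoxylate wild-type library, and for Lcn2, Col3a1, C1qc and Ube2c the glyoxylate groups overlap.

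All 34 extracellular matrix genes tested were higher, with a median of 1.59. Fibrillar collagen Col3a1 had 0.960, 1.37 and 2.84 FPKM in saline wild type and 22.00, 39.8 and 100.4 FPKM in glyoxylate knockout (4.14 ± 0.28, adjusted p = 1.50e-10). Col1a1, its type I partner, rose by 3.24 ± 0.26 (adjusted p = 2.00e-09). Basement membrane collagens moved less: Col4a2 went from a median of 12.1 to 40.98 FPKM (1.73 ± 0.14) and Col18a1 from 20.1 to 56.7 FPKM (1.48 ± 0.12). Col4a2 in glyoxylate wild type differed from saline wild type by 1.96, close to the knockout's 1.73, and the direct difference of the glyoxylate groups was -0.24 ± 0.14 (adjusted p = 0.2). The matricellular gene Sparc lay at 79.6 to 154 FPKM against 21.2 to 27.9 FPKM. In 33 of the 34 genes the groups did not overlap.

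Proliferation genes remained raised: all 32 cell cycle genes tested were higher, with a median of 1.16 and a range of 0.42 to 2.23. Ube2c, the ubiquitin-conjugating enzyme of the anaphase-promoting complex, had 0.253, 0.506 and 1.32 FPKM in saline wild type and 4.01, 6.32 and 9.35 FPKM in glyoxylate knockout (2.23 ± 0.24, adjusted p = 8.44e-08). Uhrf1, which maintains DNA methylation at replication forks, went from a median of 0.410 to 3.11 FPKM (1.60 ± 0.17). The ribonucleotide reductase subunit Rrm2 rose by 1.65 ± 0.18 and cyclin A2 (Ccna2) by 1.74 ± 0.19, each with every knockout library above every saline wild-type library. The levels of Ube2c, Uhrf1, Rrm2 and Ccna2 were low, with a highest value of 11.7 FPKM, that of Rrm2. Saline knockout held 1.335 FPKM of Ube2c in the library that expressed Ddx3y and 2.69 to 4.94 FPKM in the others. It held 0.24 to 0.86 FPKM of Uhrf1, 1.51 to 2.87 FPKM of Rrm2 and 0.36 to 0.97 FPKM of Ccna2.

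Promoters of the cell cycle list were read from RefSeq (GRCm38.p6, the 250 bases before each start site to 50 after it, both strands searched). The CCAAT box, bound by NF-Y, occurred in 23 of the 26 cell cycle promoters found (88.5%), against 37.9% of 27025 mouse promoters. TTTGAA, the core of the cell cycle homology element, occurred in 13 of 26 (50%) against 18.1%. Nuclear oxidative phosphorylation promoters held CCAAT in 9 of 27 (33.3%). Fatty acid oxidation promoters held it in 11 of 24 (45.8%). The lists were drawn up by function, so these shares describe the lists and not these data. A match is a description of the sequence and not a measured binding site. The 250 bases before the starts of Ube2c (chr2:164769679-164769928, plus strand) and Uhrf1 (chr17:56303087-56303336, plus strand) are shown as the members with the largest rise and the smallest adjusted p, with CCAAT or its reverse complement in capitals. Adjacent matches in Ube2c run together where CCAAT overlaps its own complement.
Ube2c: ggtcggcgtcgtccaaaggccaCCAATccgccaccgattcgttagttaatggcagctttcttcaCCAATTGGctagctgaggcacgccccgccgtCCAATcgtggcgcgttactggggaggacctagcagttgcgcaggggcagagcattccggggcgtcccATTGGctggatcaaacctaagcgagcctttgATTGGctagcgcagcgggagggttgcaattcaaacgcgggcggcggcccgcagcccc
Uhrf1: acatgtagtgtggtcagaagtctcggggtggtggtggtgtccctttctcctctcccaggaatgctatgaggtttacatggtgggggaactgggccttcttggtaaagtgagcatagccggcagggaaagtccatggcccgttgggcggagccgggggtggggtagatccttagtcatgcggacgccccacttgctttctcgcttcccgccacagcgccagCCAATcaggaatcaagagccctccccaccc

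The cytoskeleton and the ribosome were also above the untreated wild type. All 18 actin, thymosin and tubulin genes were higher, with a median of 1.22. Tubb2b, a β-tubulin, rose from 5.03 FPKM (4.74 to 7.44) to 21.6 FPKM (17.5 to 29.3), a difference of 1.87 ± 0.12 (adjusted p = 7.11e-11). The cytoplasmic actin Actg1 rose by 1.14 ± 0.09 from a median of 272 FPKM. All 37 ribosomal protein genes of the list were higher with a median of 0.60, but after median-ratio scaling 12 of 37 were called higher and the median was 0.36. Summed over 83 ribosomal protein features, their share of all FPKM was 2.70% ± 0.163 (SD) in saline wild type and 4.33% ± 0.474 in glyoxylate knockout, without overlap (exact permutation test over 12 libraries, two-sided, p = 0.0022, adjusted p = 0.0029). Rps2, for example, lay at 312 to 384 FPKM and then at 500.2 to 636 FPKM.

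Macrophage and monocyte genes stayed above the untreated wild-type level. Of 27 listed, 26 were tested and 25 were higher, none lower, with a median of 1.55, and their summed level was 140.8 to 189.5 FPKM in saline wild type and 425.5 to 920.0 FPKM in glyoxylate knockout. In bulk tissue a change in cell number and a change in RNA per cell cannot be told apart. Lyz2, lysozyme of myeloid cells, had 6.46, 9.67 and 15.3 FPKM in saline wild type and 47.8, 99.99 and 229.5 FPKM in glyoxylate knockout (3.21 ± 0.34, adjusted p = 8.12e-08). C1qc, a subunit of complement C1q made by macrophages, went from a median of 3.86 to 18.2 FPKM (2.04 ± 0.19), and Cd68, a lysosomal marker, from 1.24 to 5.83 FPKM (1.75 ± 0.18). Lgals3, galectin-3, which injured tubule cells also express, rose by 2.26 ± 0.13. All 8 tested MHC class II genes were higher with a median of 1.14, and Cd74, the invariant chain, ranged from 160.0 to 261 FPKM against 63.1 to 91.7 FPKM.

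Other leukocyte classes had low summed levels. All 12 T and NK cell genes found in the table lay under the filter, and their sum was 1.12 to 2.03 FPKM in saline wild type and 1.89 to 4.23 FPKM in glyoxylate knockout. The 7 B and plasma cell genes found, 1 of them tested and not called, summed to 1.20 to 7.08 FPKM and to 1.22 to 5.17 FPKM. The 13 neutrophil genes summed to 0.53 to 3.53 FPKM in saline wild type and to 3.26 to 17.87 FPKM in glyoxylate knockout, and 2 were tested. S100a8, a calprotectin subunit, rose from a median of 0.304 to 1.00 FPKM (0.81 ± 0.27, adjusted p = 0.019). That call was lost under quantile normalization and without glyoxylate knockout replicate 4. Its partner S100a9 was called at an adjusted p of 0.048, a call lost in most alternatives, among them the fit of the 12 libraries alone. The groups overlapped for both genes. The share of FPKM in hemoglobin transcripts, which marks blood left in the tissue, was lower in glyoxylate knockout, at 0.0560% ± 0.0518 (SD) against 0.305% ± 0.179 (exact permutation test over 12 libraries, p = 0.015, adjusted p = 0.015), and its part in the other results was not tested. Hbb-bs and Hba-a1, whose near-identical copies can share reads, fell by 2.74 and 2.64 on the log2 scale.

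NF-kB target genes, which include the chemokines that recruit monocytes, were raised in 23 of 23 tested cases, with a median of 1.15 and a range of 0.38 to 2.42. Cxcl1, a neutrophil-attracting chemokine, had 0.154, 0.318 and 0.466 FPKM in saline wild type and 2.81, 6.34 and 10.5 FPKM in glyoxylate knockout (2.42 ± 0.20, adjusted p = 2.00e-09). Csf1, the macrophage growth factor, stood at 1.31 to 1.55 FPKM and then at 4.71 to 11.04 FPKM (1.73 ± 0.14, adjusted p = 2.14e-09). Every knockout library lay above every saline wild-type library for Csf1 and below every glyoxylate wild-type library, of which the lowest was at 20.99 FPKM. Cxcl1 was placed likewise, with its lowest glyoxylate wild-type library at 14.08 FPKM. Cxcl10, an interferon-induced chemokine, and the nuclear cofactor Bcl3 rose by 1.98 ± 0.15 and 1.83 ± 0.16. Knockout libraries also lay below every glyoxylate wild-type library for Cxcl10, but overlapped them for Bcl3.

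Letters of the classical κB site (GGGA, then any base, then TTTCC, on either strand) were found in 6 of the 17 promoters available for the NF-kB list (35.3%), those of Cxcl1, Cxcl2, Csf1, Il6, Nfkbia and Ltb, and in 0.385% of all 27025 promoters. None of 21 macrophage list promoters held it. Il6 lay under the filter on low values and was not tested. The list was drawn up as NF-kB targets, so this share describes the list and not these data. Letters of the AP-1 site (TGA, then any base, then TCA) were also searched. They occurred in 0 of 12 immediate early, 5 of 20 injury and 3 of 17 NF-kB list promoters, against 7.93% of all promoters. The windows before the Cxcl1 start (chr5:90890995-90891244, plus strand, GRCm38.p6) and the Csf1 start (chr3:107760470-107760719, minus strand) are shown because both genes rose and both held the letters, given in capitals in either orientation.
Cxcl1: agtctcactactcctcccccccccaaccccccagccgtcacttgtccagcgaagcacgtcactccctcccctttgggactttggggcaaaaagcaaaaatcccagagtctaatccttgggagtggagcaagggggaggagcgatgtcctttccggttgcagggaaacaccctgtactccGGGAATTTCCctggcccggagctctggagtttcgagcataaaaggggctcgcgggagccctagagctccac
Csf1: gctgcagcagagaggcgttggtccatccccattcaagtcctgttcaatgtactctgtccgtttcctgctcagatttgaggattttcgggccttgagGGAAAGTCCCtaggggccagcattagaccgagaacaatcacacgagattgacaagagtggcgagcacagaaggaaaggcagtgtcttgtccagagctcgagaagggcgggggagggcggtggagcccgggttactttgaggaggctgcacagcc

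Immediate early genes were higher in 13 of 15 tested cases (median 1.03). Junb, an AP-1 subunit, went from 6.98 FPKM (6.47 to 8.80) to 28.1 FPKM (22.1 to 37.4), a difference of 1.82 ± 0.12, and the stress factor Atf3 rose by 1.56 ± 0.15. The phosphatase gene Dusp1 did not share this pattern, with medians of 30.3 and 28.6 FPKM and an interval of -0.42 to 0.46 around 0.02. Fibrinogen and acute phase genes, with regulators of STAT3 signalling, were higher in 10 of 15 cases (median 1.24). Socs3, the feedback inhibitor of STAT3, had 0.342 to 0.802 FPKM in saline wild type and 6.21 to 12.9 FPKM in glyoxylate knockout (2.65 ± 0.16, adjusted p = 3.25e-11), and the oncostatin M receptor Osmr rose by 1.68 ± 0.15. The fibrinogen chain Fgg varied widely within the knockout group, at 19.3, 71.04 and 239.5 FPKM against 2.71, 4.18 and 12.8 FPKM (3.60 ± 0.42). Its difference in glyoxylate wild type was 2.80, and the glyoxylate groups differed by 0.80 ± 0.42 (adjusted p = 0.15).

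Complement, interferon and antigen presentation genes were also mostly higher. In the complement list 14 of 18 genes were higher and 2 lower (median 1.29). C3, the central component, had 1.38, 4.13 and 9.60 FPKM in saline wild type and 26.9, 103 and 308 FPKM in glyoxylate knockout (4.10 ± 0.45, adjusted p = 1.72e-07), while factor B (Cfb) stayed at medians of 148 and 139.9 FPKM with an interval of -0.27 to 0.22. Interferon response genes were higher in 19 of 23 cases (median 0.81), with Ifit3 at 23.7 to 30.9 FPKM against 6.90 to 8.77 FPKM (1.71 ± 0.14). MHC class I and immunoproteasome genes were higher in 11 of 14 cases (median 0.54). After median-ratio scaling 8 of those 14 were higher and 1 lower. The immunoproteasome subunit Psmb10 rose by 1.20 ± 0.18 and B2m, the class I light chain, by 0.89 ± 0.16, whereas H2-T23, a nonclassical class I gene, lay near the untreated level (-0.41 to 0.10).

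Other parts of the inflammasome were mixed. Of 18 listed genes 14 were tested, of which 7 were higher (background 38.9%), 2 lower (6.72%) and 4 near (52.1%), with a median of 0.31. Pycard, the ASC adaptor, went from 1.21, 1.48 and 1.75 FPKM to 2.54, 3.14 and 3.92 FPKM (0.75 ± 0.15, adjusted p = 4.30e-04). Il1rn, the IL-1 receptor antagonist, rose by 1.21 ± 0.17 and caspase-11 (Casp4) by 0.87 ± 0.15. Nlrc4, the sensor of another inflammasome, was lower, at 0.245, 0.431 and 1.21 FPKM against 1.25, 1.44 and 1.71 FPKM (-0.66 ± 0.13, adjusted p = 3.08e-04). For Nlrc4, saline knockout was at 1.18 FPKM in the library that expressed Ddx3y and at 0.273 to 0.440 FPKM in the others. Nek7, the kinase that licenses NLRP3, had medians of 18.1 and 18.8 FPKM and an interval of -0.13 to 0.26, and Gsdme, a pore-forming gasdermin, was near at -0.24 to 0.25.

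Fatty acid oxidation was the metabolic list with the most genes still lower. Of 29 tested genes 19 were lower (background 6.72%), none higher and 8 near, with a median of -0.43, and in 13 every knockout library lay below every saline wild-type library (3.33% of all features). After median-ratio scaling 28 were lower and none near. The medium-chain dehydrogenase Acadm had 393, 467 and 519 FPKM in saline wild type and 213, 232 and 254 FPKM in glyoxylate knockout (-0.98 ± 0.10, adjusted p = 3.64e-08). Cpt2, which brings fatty acids into the mitochondrial matrix, fell by 0.87 ± 0.08 from 92.8 to 48.7 FPKM. The groups did not overlap for Acadm or Cpt2. Acaa2, the mitochondrial thiolase, lay near the untreated level at medians of 142 and 125 FPKM (-0.50 to 0.06), with knockout libraries spread from 88.3 to 171 FPKM, and was called lower after scaling at -0.47 and without glyoxylate knockout replicate 3 at -0.32.

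PPAR alpha targets, which overlap this pathway, were lower in 8 of 21 cases and higher in 2. Pdk4, the kinase that blocks pyruvate dehydrogenase, had 41.7, 71.5 and 108 FPKM in saline wild type and 11.1, 14.4 and 36.99 FPKM in glyoxylate knockout (-2.04 ± 0.32, adjusted p = 2.05e-05). Acot12, an acetyl-CoA hydrolase, fell by 0.95 ± 0.13, while Esrra, a nuclear receptor of mitochondrial genes, was near at -0.17 to 0.18. For Acot12 saline knockout was at 63.1 FPKM in the library that expressed Ddx3y and at 34.8 to 43.1 FPKM in the others. Gluconeogenesis genes were lower in 9 of 14 cases with a median of -0.38. Pck1, the rate-limiting carboxykinase, was at 1057, 1393 and 1578 FPKM and then at 361, 504 and 940.0 FPKM (-1.35 ± 0.22, adjusted p = 3.63e-05). G6pc, glucose-6-phosphatase, fell by 1.14 ± 0.19, and neither gene overlapped between the groups. Gpt2, an alanine aminotransferase, went the other way, by 1.00 ± 0.14.

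Amino acid catabolism was split. Of 21 genes of tyrosine, phenylalanine and branched chain breakdown, 10 were lower, 10 near and none higher (median -0.29), and after scaling 16 were lower. The branched chain enzymes Ivd and Mccc1 fell, from medians of 138 and 73.4 FPKM to 84.6 and 49.5 FPKM (differences -0.68 ± 0.09 and -0.58 ± 0.06). For Ivd saline knockout was at 134.8 FPKM in the library that expressed Ddx3y and at 86.5 to 111 FPKM in the others. For Mccc1 it ranged from 66.0 to 79.5 FPKM. Tyrosine enzymes Fah and Hgd lay near the untreated level, with medians of 194 and 169 FPKM in saline wild type and 176 and 156 FPKM in glyoxylate knockout, and intervals of -0.33 to 0.15 and -0.27 to 0.09. After median-ratio scaling 3 of the 21 were near, and Hgd was called lower at -0.34.

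Of 18 genes of glyoxylate and oxalate handling 15 were tested, with 8 near (background 52.1%), 4 lower and 2 higher (median -0.14). The near share was thus close to that of all features, and after scaling 2 were near (background 62.2%) and 7 lower. Prodh2, hydroxyproline dehydrogenase, which starts the route from collagen hydroxyproline to glyoxylate, had 23.2, 29.5 and 32.3 FPKM in saline wild type and 38.6, 69.2 and 84.7 FPKM in glyoxylate knockout (1.13 ± 0.16, adjusted p = 6.85e-06). Hao2, a peroxisomal hydroxy acid oxidase, rose by 0.91 ± 0.25 with overlap between the groups. Saline knockout ranged from 43.02 to 63.1 FPKM for Prodh2. For Hao2 it was at 119.5 FPKM in the library that expressed Ddx3y and at 339 to 395 FPKM in the others. Grhpr, which reduces glyoxylate to glycolate, was lower by 0.36 ± 0.13 (adjusted p = 0.027), a call lost without glyoxylate knockout replicate 6 or without saline wild-type replicate 4 or 6. Its saline knockout level was 123.8 FPKM in the library that expressed Ddx3y and 86.9 to 91.0 FPKM in the others. Ldha, the lactate dehydrogenase that oxidizes glyoxylate to oxalate, was near (-0.38 to 0.01) but called lower after scaling at -0.43, and the amino acid oxidase gene Dao was near (-0.29 to 0.14).

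Most nuclear genes of the respiratory chain and all citrate cycle genes lay within the near margin as deposited. In each list 8 genes were nevertheless called lower (background 6.72%). Most transcripts of the mitochondrial genome did not lie within that margin. Of 36 nuclear oxidative phosphorylation genes 34 were near (background 52.1%), 8 of these also called, all lower, and the median was -0.02. In 7 genes every knockout library lay below every saline wild-type library (3.33% of all features). Ndufa10, for example, was at 95.8 to 113.6 FPKM in saline wild type and at 79.9 to 85.8 FPKM in glyoxylate knockout. After median-ratio scaling 12 were near and 14 lower, with a median of -0.27. Atp5a1, the α subunit of ATP synthase, ranged from 760.3 to 818 FPKM and from 694 to 803 FPKM, with an interval of -0.19 to 0.07, and Cox4i1 of complex IV had an interval of -0.17 to 0.38. All 18 citrate cycle genes were near, 10 of them also called, 8 lower and 2 higher, with a median of -0.14. After scaling 4 were near and 15 lower. Both lists had medians below the 0.20 of all features.

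Of 13 mitochondrially encoded features 9 were lower and 1 near. The count was 0 under quantile normalization and 1 without the filter on low values, and 5 without glyoxylate knockout replicate 3 or 4 without saline wild-type replicate 1. Their share of all FPKM was 29.6% ± 2.84 (SD) in saline wild type and 23.9% ± 1.10 in glyoxylate knockout, without overlap, at 26.9 to 34.3% and 21.9 to 24.7% (exact permutation test over 12 libraries, p = 0.0022, adjusted p = 0.0029). It ranged from 13.52 to 22.97% in glyoxylate wild type. mt-Nd2, a complex I subunit, fell by 0.63 ± 0.13 (adjusted p = 3.46e-04), and mt-Co1 of complex IV was near, at -0.49 to 0.05. The call for mt-Nd2 was lost under quantile normalization, at a difference of -0.11. These shares describe composition and not absolute amounts.

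Of 19 glycolysis genes tested 12 were near (background 52.1%), 6 higher and none lower, with a median of 0.06. After scaling 10 were near (background 62.2%), 3 higher and 4 lower. Aldoa and Ldhb, the abundant aldolase and lactate dehydrogenase, had intervals of -0.03 to 0.31 and -0.19 to 0.31. Slc2a1, the glucose transporter GLUT1, which feeds the pathway, went from 11.7 to 13.6 FPKM up to 21.2 to 29.7 FPKM (0.84 ± 0.10, adjusted p = 5.61e-07). Its saline knockout level was 12.5 FPKM in the library that expressed Ddx3y and 17.4 to 18.5 FPKM in the others. Pfkp, the platelet phosphofructokinase, rose by 0.63 ± 0.11.

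Transport genes of the proximal tubule differed between lists. Organic anion and cation transporters were lower in 14 of 22 cases, higher in 3 and near in 4, with a median of -0.54. Slco1a1, an organic anion transporter, had 48.97, 78.5 and 90.7 FPKM in saline wild type and 0.107, 4.68 and 26.7 FPKM in glyoxylate knockout (-4.07 ± 0.84, adjusted p = 4.15e-04), the largest fall among named genes. Slco1a1 is also on the male-biased list, and saline knockout held at most 0.0982 FPKM in 5 of 6 libraries and 54.4 FPKM in the library that expressed Ddx3y. Slc22a7 (OAT2) fell by 3.36 ± 0.52, from 54.9 to 94.96 FPKM down to 0.298 to 30.1 FPKM. The efflux pump Abcc4 rose by 1.02 ± 0.23, with 8.33 to 22.4 FPKM in glyoxylate knockout. Its saline knockout level was 7.90 FPKM in the library that expressed Ddx3y and 12.8 to 23.1 FPKM in the others. The carnitine transporter Slc22a5 was near at -0.44 to 0.02 but called lower after scaling at -0.45.

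Amino acid transporters were near the untreated level in 9 of 17 cases (background 52.1%), with 3 higher and 2 lower (median 0.13). After scaling 6 were near (background 62.2%), 7 lower and 2 higher. Slc3a1, the cystine transporter subunit rBAT, had medians of 288 and 264 FPKM (-0.34 to 0.10), and Slc1a1, the glutamate transporter, had an interval of -0.16 to 0.19; after scaling both were called lower, at -0.37 and -0.23. Slc7a7, the basolateral transporter y+LAT1, was higher in glyoxylate knockout at 68.2, 96.8 and 138 FPKM against 40.5, 59.6 and 63.8 FPKM (0.77 ± 0.13, adjusted p = 7.36e-05). Its difference in glyoxylate wild type was 0.25, and the glyoxylate groups differed by 0.52 ± 0.13 (adjusted p = 0.0052; 29.8% of features were called in that comparison).

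Proximal tubule identity genes were near in 11 of 30 cases, lower in 9 and higher in 4 (median -0.11), and lower in 15 after scaling. The brush border enzymes Mep1b and Ace stayed down. Mep1b, a meprin subunit, had 72.97, 86.05 and 104 FPKM in saline wild type and 21.04, 36.8 and 47.2 FPKM in glyoxylate knockout (-1.33 ± 0.15, adjusted p = 3.30e-07). Ace, angiotensin-converting enzyme, fell by 1.22 ± 0.17. Hnf4a, the transcription factor of proximal tubule fate, did not follow them, with medians of 156 and 174 FPKM and an interval of -0.04 to 0.33. The sulfate transporter Slc13a1 was higher (1.01 ± 0.15), and the dicarboxylate transporter Slc13a3 was near (-0.32 to 0.13).

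Segments beyond the proximal tubule had near shares close to or below the 52.1% of all features. In the thick ascending limb 6 of 12 genes were near, 3 higher and 1 lower, and after scaling 6 were near, 1 higher and 3 lower. Egf, the growth factor made there, was the gene lower, at 364, 418 and 479 FPKM in saline wild type and 70.6, 180.3 and 248 FPKM in glyoxylate knockout (-1.55 ± 0.27, adjusted p = 6.44e-05), whereas Kcnj1, the potassium channel ROMK, had an interval of -0.45 to 0.19. In the distal convoluted tubule 6 of 15 were near, 3 lower and 1 higher. Pvalb, parvalbumin of early distal cells, went from 11.7 FPKM (9.38 to 13.3) to 1.32 FPKM (0.581 to 2.95), a difference of -2.36 ± 0.21, while Wnk4, a kinase that regulates salt transport there, was near (-0.30 to 0.21). After scaling 9 of those 15 genes were lower.

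Intercalated cell genes were near in 9 of 16 cases, with 3 higher and 1 lower, and after scaling 11 were near, 2 higher and 4 lower. Rhcg, the ammonia channel, had medians of 38.3 and 39.9 FPKM (-0.24 to 0.30), and Car2, carbonic anhydrase, was higher by 0.51 ± 0.09. Saline knockout held 159 FPKM of Car2 in the library that expressed Ddx3y and 199 to 223 FPKM in the others. Principal cell genes were near in 3 of 14 cases and higher in 3, with 8 neither called nor bounded, and after scaling 7 were near, 1 higher and 3 lower. Podocyte genes were near in 4 of 13 cases and higher in 5, and endothelial genes near in 5 of 16 and higher in 8 (background 38.9% higher). After scaling 10 podocyte and 12 endothelial genes were near (background 62.2%). Then 2 podocyte genes were higher, and 3 endothelial genes were higher and 1 lower (background 16.9% higher). Nphs1, nephrin of the slit diaphragm, had medians of 4.62 and 5.05 FPKM (-0.19 to 0.42). Plvap, a protein of fenestrated endothelium, rose by 0.62 ± 0.15. Its saline knockout level was 41.8 FPKM in the library that expressed Ddx3y and 48.8 to 81.6 FPKM in the others.

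Protein folding genes were partly raised. Of 25 genes of the unfolded protein and integrated stress responses 17 were higher, 6 near and 1 lower (median 0.39), with 9 higher and 11 near after scaling. Phgdh, serine synthesis, and Asns, asparagine synthesis, both induced by ATF4, rose by 1.17 ± 0.14 and 1.12 ± 0.20. Herpud1, of endoplasmic reticulum degradation, was near (-0.30 to 0.16). Herpud1 was called lower after scaling (-0.32), as were H2-T23 (-0.4), Atp5a1 (-0.31), mt-Co1 (-0.47), Slc13a3 (-0.34), Kcnj1 (-0.37) and Wnk4 (-0.28). Of 14 cytosolic heat shock genes 7 were higher (background 38.9%), 6 near and 1 lower, with a median of 0.25 beside 0.20 for all features. After scaling 2 were higher (background 16.9%) and the median was 0.02, so this list as a whole lay close to all features. The small heat shock protein Hspb1 had 4.18 to 8.35 FPKM and then 23.9 to 49.1 FPKM (2.21 ± 0.18, adjusted p = 2.73e-09), and Hsp90aa1 and Hsp90ab1 were near, at -0.36 to 0.19 and -0.10 to 0.24.

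Among genes counted as near, the 5 highest and the 5 lowest in glyoxylate wild type are given as values without a test, since that pattern chose them. Near allows a small difference that passed the test, and Bcl10 (0.31) and Dnajb1 (0.24) were both called higher, calls lost after scaling. Dnajb1, an HSP40 co-chaperone, had 9.49, 10.8 and 12.5 FPKM in saline wild type, 10.7, 13.2 and 14.8 FPKM in glyoxylate knockout, and 22.9, 26.01 and 35.2 FPKM in glyoxylate wild type. Median levels in the same order were 17.8, 21.4 and 34.4 FPKM for Srsf7, a splicing factor, and 8.82, 10.6 and 17.01 FPKM for Bcl10, an adaptor that leads to NF-kB. For the replication proteins Rfc3 and Rpa3 the knockout medians were 3.71 and 6.29 FPKM, beside 2.93 and 5.58 FPKM in saline wild type and 6.36 and 10.6 FPKM in glyoxylate wild type. The choice of these 5 genes favours knockout libraries that lie below those of glyoxylate wild type, so that separation is not a result. Only for Bcl10 did every knockout library lie above every saline wild-type library.

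The 5 genes of the opposite kind were low in glyoxylate wild type and near the untreated level in glyoxylate knockout. Vnn1, the pantetheinase of the brush border, had 50.5, 67.8 and 74.2 FPKM in saline wild type, 40.3, 57.1 and 93.5 FPKM in glyoxylate knockout and 17.2, 26.4 and 31.7 FPKM in glyoxylate wild type. Papss2, which makes the sulfate donor PAPS, had medians of 104, 106 and 45.2 FPKM in the same order. The retinol dehydrogenase Rdh16 had 43.1, 42.7 and 17.4 FPKM, the factor XIII subunit F13b 52.2, 54.2 and 22.5 FPKM, and the peroxisomal acyltransferase Acnat1 22.3, 22.6 and 9.83 FPKM. Knockout libraries varied more than saline wild-type libraries for Vnn1 and Acnat1, and the groups overlapped in all 5 genes.

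**Figure D3:**
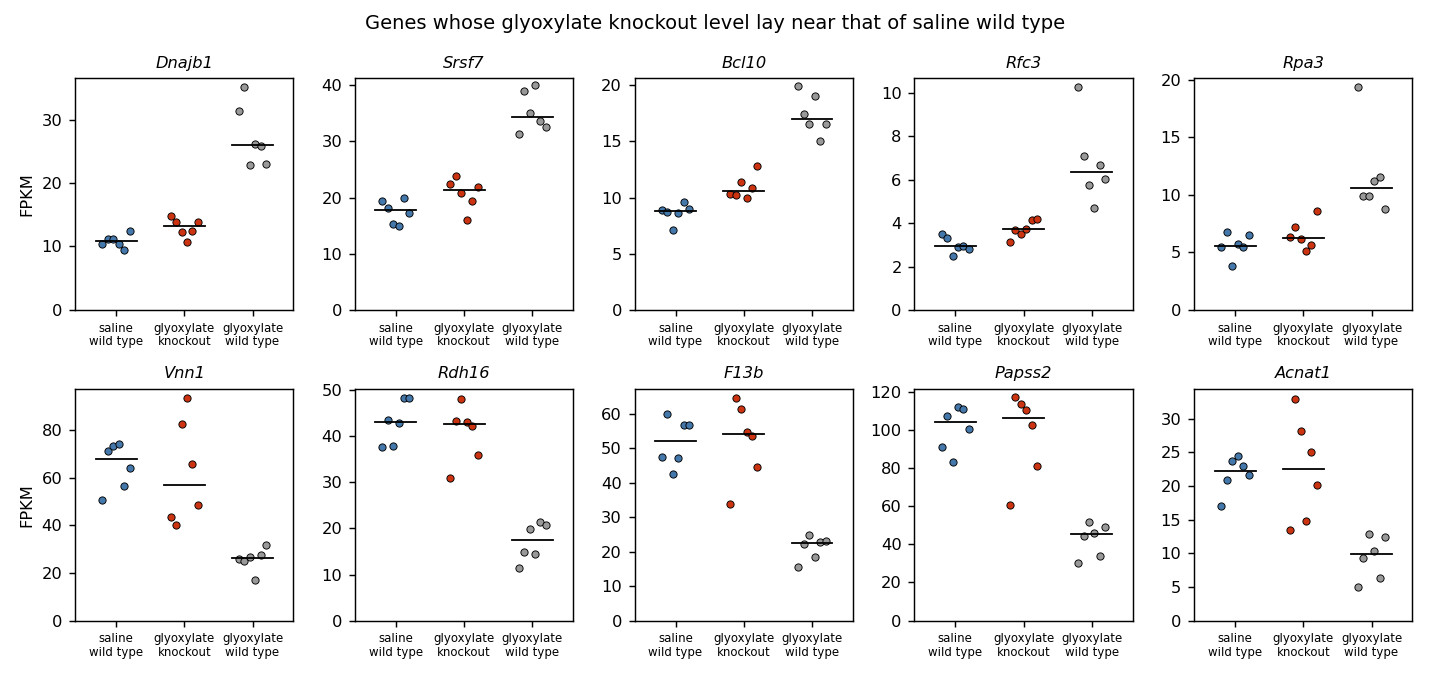
FPKM of the 10 genes near the saline wild-type level in glyoxylate knockout that differed most in glyoxylate wild type; points are libraries, lines are medians, axes start at 0. The upper row and the lower row hold the genes high and low in glyoxylate wild type. The genes were chosen by this pattern, so the placing of the knockout libraries follows from the choice.

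The side-by-side list medians use the same saline wild-type libraries and so are not independent. Against these libraries the injury list had a median of 1.62 in glyoxylate knockout and 2.55 in glyoxylate wild type, the NF-kB list 1.15 and 2.16, MHC class II 1.14 and 2.25, and the matrix list 1.59 and 2.10. Fatty acid oxidation stood at -0.43 and -0.88, gluconeogenesis at -0.38 and -1.09, proximal tubule identity at -0.11 and -0.75, and cytosolic heat shock at 0.25 and 0.93. Acute phase genes were at 1.24 and 1.31 and nuclear oxidative phosphorylation at -0.02 and 0.01.

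**Figure D4:**
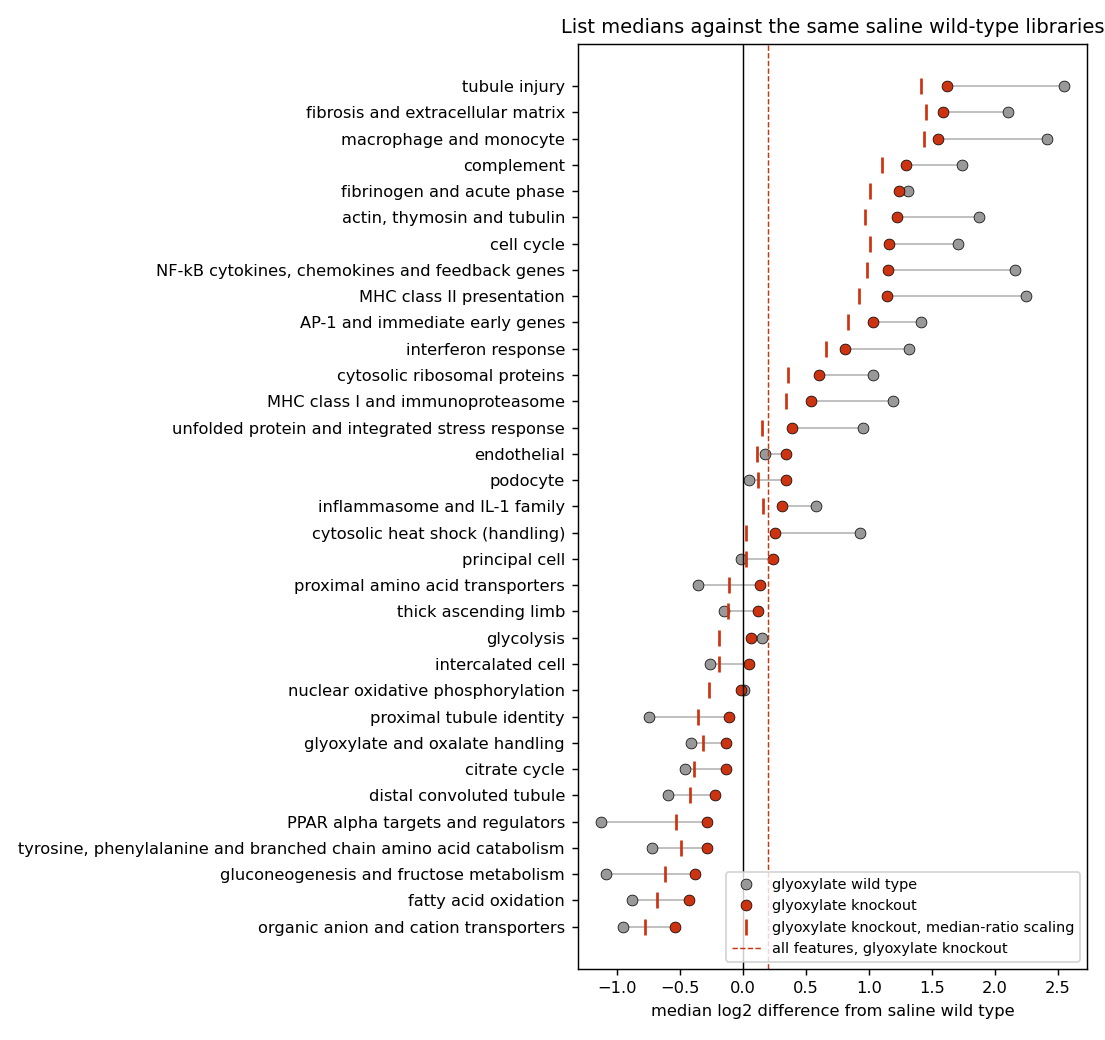
Median log2(FPKM + 1) difference of each list from the saline wild type in glyoxylate knockout (red) and glyoxylate wild type (grey), with the knockout value after median-ratio scaling as a red tick and the median of all features in glyoxylate knockout (0.20) as a dashed line. The injury, NF-kB and matrix lists lie nearer 0 in glyoxylate knockout, and acute phase and nuclear oxidative phosphorylation lie close together in both.

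A wide spread among glyoxylate knockout libraries was seen in genes known to differ between male and female mouse kidneys. Of 12 male-biased genes 9 were lower and 1 higher, with a median of -1.99 in glyoxylate knockout and -1.74 in glyoxylate wild type. Kap, the androgen-regulated kidney protein, was at 17483, 21047 and 22059 FPKM in saline wild type and at 951, 4599 and 13061 FPKM in glyoxylate knockout (-2.34 ± 0.45, adjusted p = 1.88e-04). The steroid hydroxylase Cyp7b1 had 75.5 to 132 FPKM and then 2.02 to 33.4 FPKM (-3.51 ± 0.75, adjusted p = 5.61e-04). Among knockout libraries Kap was lowest in replicates 4 and 3, at 951 and 1819.7 FPKM, and highest in replicates 1 and 6, at 13061 and 9309 FPKM. Acsm3, an acyl-CoA synthetase, was lowest in the same pair, at 13.4 and 20.01 FPKM, and highest in replicates 1 and 6, at 169 and 144 FPKM.

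Of 8 female-biased genes 5 were higher and 2 lower, with a median of 1.47 in glyoxylate knockout and -0.11 in glyoxylate wild type. The amino acid transporter Slc7a12 had 1.67, 2.68 and 6.30 FPKM in saline wild type and 11.5, 57.2 and 109.7 FPKM in glyoxylate knockout (3.65 ± 0.60, adjusted p = 3.29e-05). Its difference in glyoxylate wild type was 3.23, and the glyoxylate groups differed by 0.42 ± 0.60 (adjusted p = 0.64). Saline knockout held 8.94 FPKM of Slc7a12 in the library that expressed Ddx3y and 116 to 186 FPKM in the others. The prolactin receptor Prlr rose by 2.24 ± 0.54, with glyoxylate knockout libraries from 1.07 to 38.1 FPKM. Its saline knockout level was 4.38 FPKM in the library that expressed Ddx3y and 13.2 to 42.8 FPKM in the others. The glucuronosyltransferase Ugt1a2, one of a family whose members share exons, had 7.39 to 353 FPKM against 0.269 to 2.56 FPKM (5.19 ± 0.96), and the difference was 5.79 without glyoxylate knockout replicate 1. Ugt1a2 was lowest in replicates 1 and 6 (7.39 and 11.7 FPKM) and highest in replicates 3 and 4 (240.0 and 353 FPKM). In saline knockout, the library that expressed Ddx3y held 2.64 FPKM of Ugt1a2 and 20308 FPKM of Kap. The others, nearly without Ddx3y, held 248 to 472 FPKM of Ugt1a2 and 6878 to 9172 FPKM of Kap. All 6 glyoxylate knockout libraries expressed Ddx3y.

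Across other classes this library order was shared by some genes and not by others. Havcr1 was likewise highest in replicates 1 and 6, at 157 and 207 FPKM, and lowest in replicates 3 and 4, at 43.8 and 39.1 FPKM. Col3a1 was highest in replicates 6 and 2, at 100.4 and 70.0 FPKM. C1qc lay between 13.6 and 18.5 FPKM in 5 of the 6 libraries and reached 32.8 FPKM in replicate 6.

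**Figure D5:**
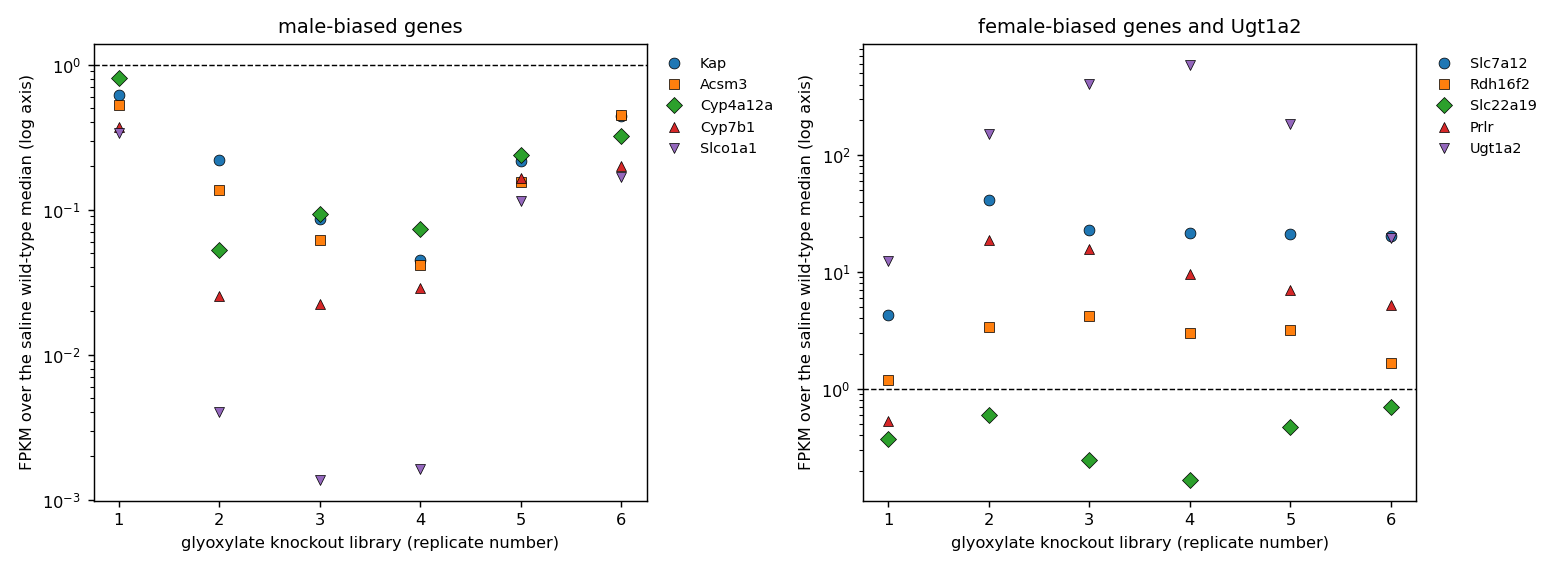
FPKM of each glyoxylate knockout library divided by the median of the 6 saline wild-type libraries (log axes) for 5 male-biased genes, left, and for 4 female-biased genes with Ugt1a2, right; the dashed line marks the saline wild-type median. Replicates 3 and 4 lie lowest for Kap and Acsm3 and highest for Ugt1a2, and replicate 1 lies closest to the line for all but Slc22a19.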

How the data were processed

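Bulk RNA-seq of mouse kidney was deposited as 1 table of FPKM for 28450 features in 24 libraries, computed by the authors. Bowtie 0.12.2 and the mouse builds mm8 and mm9 are named per the submitters' processing notes. Which program computed FPKM, how strand was handled and how deeply each library was read is not given in the sources used here, so no interval based on depth is printed. Nothing says that the libraries of a group came from separate animals, so each p-value measures only how these samples vary, which may be technical.

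The deposited FPKM were converted to log2(FPKM + 1). The 13020 features that reached 1 FPKM in 6 or more libraries were fitted with limma 3.58.1 (R 4.3.3, trended empirical Bayes) over all 24 libraries in 4 groups, with Benjamini-Hochberg adjustment at 0.05 over all tested features. Single values were compared with exact two-sided permutation tests (scipy 1.17.1). The fit was tested on simulated data. Alternatives changed the pseudocount, filter, scaling, margin, libraries fitted and weights, left out each replicate, and added the replicate number as a block.

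Named genes were the 15 largest rises and the 15 largest falls among features whose higher group averaged 5 FPKM or more (no predicted genes or pseudogenes), up to 4 called (smallest p) and 3 near (highest mean) members per list, 10 near genes that differed most in glyoxylate wild type, and Nlrp3, Ddx3y and Havcr1. Some genes the rule names are not reported here. The lists and the comparison were chosen with earlier results of these data known. Promoters are from RefSeq (GRCm38.p6). Single members of near-identical families (hemoglobins, Ugt1a, Gsta, Cyp2d) are uncertain, since shared reads can be split between copies.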

Additional observations from a re-analysis of the deposited data

Results flagged for a closer look

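In 270 groups of 6 libraries (the genes given with values and the single measures, in each group compared), 18 held 1 library set apart from the other 5 by more than Dixon's 95% limit, on the log2(FPKM + 1) scale for genes. Chance flags about 1 in 20 groups. No cause was tested.

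In glyoxylate knockout, replicate 6 was highest for C1qc at 32.78 FPKM (next library 18.54), Col18a1 at 68.42 FPKM (58.2) and Col4a2 at 51.92 FPKM (41.85). Replicate 1 was lowest for the female-biased transporter Slc7a12 at 11.51 FPKM (54.16), and highest for Grhpr at 107.7 FPKM (89.85). Replicate 3 was highest for Pdk4 at 36.99 FPKM (15.15) and for the endothelial gene Plvap at 76.83 FPKM (50.29). Slc2a1 was highest in replicate 4 at 29.72 FPKM (22.44), and Gatm in replicate 2 at 342.4 FPKM (180.9).

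In saline wild type, replicate 3 was highest for Cp at 14.0 FPKM (6.888) and Tubb2b at 7.437 FPKM (5.2), and lowest for Bcl10 at 7.123 FPKM (8.598) and Slc7a7 at 40.46 FPKM (55.57). Replicate 6 was lowest for Spp1 at 342.2 FPKM (405.6) and Cd68 at 0.6506 FPKM (1.143). Ube2c was highest in replicate 4 at 1.317 FPKM (0.5565), Cox4i1 lowest in replicate 5 at 663.5 FPKM (734.4), and Slc3a1 lowest in replicate 1 at 230.7 FPKM (284.4).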

How the results depend on the processing

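The 5068 features higher and 875 lower became 2197 and 2121 when libraries were scaled by median ratios, which put the median of all features at -0.01. Quantile normalization gave 2159 higher and 2357 lower with a median of -0.03, and the median was 0.06 with no filter. Features near the saline wild-type level numbered 939 with a margin of 0.25, 11480 with a margin of 1, 17824 with no filter and 4499 with a mean of at least 5 FPKM. That last filter, which tests fewer genes, gave 3808 features called, 3182 of them higher, and list counts higher of 13 (NF-kB), 8 (AP-1), 14 (macrophage), 12 (interferon), 5 (acute phase), 21 (matrix) and 8 (cell cycle), with 2 podocyte genes near. Under median-ratio scaling 9 unfolded protein response and 12 ribosomal genes were higher, 16 tyrosine and branched chain genes were lower, and the near counts were 12 (oxidative phosphorylation), 4 (citrate cycle), 2 (glyoxylate handling), 7 (principal cell), 10 (podocyte) and 12 (endothelial). Under quantile normalization the near counts were 5 (glyoxylate handling), 5 (principal cell), 9 (podocyte) and 12 (endothelial), and mitochondrially encoded genes lower were 0, against 1 with no filter. With a pseudocount of 0.1 the near counts were 1 (principal cell), 2 (podocyte) and 1 (endothelial). Principal cell genes near were 6 in the fit of 12 libraries and 7 with array weights, and proximal tubule identity genes near were 7 after rescaling without mitochondrial transcripts. Leaving out 1 replicate at a time gave 4 to 9 mitochondrially encoded genes lower, and near counts of 2 to 4 (podocyte), 1 to 7 (endothelial), 5 to 9 (glyoxylate handling) and 2 to 6 (principal cell). Differences reversed for Canx (-0.05), Lamp2 (-0.1), Idh3a (-0.02) and Perp (-0.0009) after median-ratio scaling, and for Atp5b (0.04), mt-Nd4 (0.06) and mt-Nd6 (0.02) after quantile normalization. The cause was not tested. With the replicate number as a block, 4992 features were higher and 838 lower; deviations of same-numbered libraries correlated between -0.12 and 0.02, so the numbers were not taken to pair samples. Among named genes, the call changed for 30 that gained and 20 that lost it under median-ratio scaling. Depth is unknown, so weakly expressed genes carry an unquantified counting error.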

Other observations

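Several gene groups outside the classes above were also read against saline wild type, on the same scale and fit. Polyamine and arginine genes were higher in 8 of 15 cases (background 38.9%), lower in 2 (6.72%) and near in 4 (52.1%). After median-ratio scaling 4 were higher (background 16.9%), 3 lower (16.3%) and 5 near (62.2%). Aoc1, the diamine oxidase that degrades polyamines, had 0.854, 1.33 and 1.66 FPKM in saline wild type and 8.93, 11.8 and 20.1 FPKM in glyoxylate knockout (2.55 ± 0.23, adjusted p = 7.29e-09). Gatm, which makes the creatine precursor, lay near the untreated level (-0.46 to 0.34) and was -1.02 from it in glyoxylate wild type. In the clock list of 15 tested genes 4 were lower, 2 higher and 5 near (6, 1 and 4 after scaling): Nr1d1, the repressor REV-ERBα, rose from a median of 8.35 to 24.1 FPKM (1.43 ± 0.18), without overlap between the groups. Time of day at collection is not given in the labels used here.

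Of 11 phosphate, klotho and vitamin D genes tested 3 were higher (background 38.9%), 3 lower (6.72%) and 2 near (52.1%). Of 13 iron handling genes 4 were higher, none lower and 5 near. After scaling these counts were 2, 4 and 2 for the vitamin D list and 4, 1 and 1 for the iron list. Gc, the vitamin D binding protein, rose by 2.25 ± 0.28, from 11.1 to 21.6 FPKM up to 44.2 to 171 FPKM. Its saline knockout level was 17.2 FPKM in the library that expressed Ddx3y and 39.3 to 51.3 FPKM in the others. Vdr, the vitamin D receptor, fell by 0.85 ± 0.13. Cyp27b1, which activates vitamin D, overlapped between the groups at 0.656 to 8.19 FPKM and 3.95 to 14.2 FPKM, and its call (adjusted p = 0.016) was lost under quantile normalization at a difference of 1.12. Ferritin genes Fth1 and Ftl1 were near the untreated level (-0.34 to 0.32 and -0.27 to 0.38). In the tryptophan to NAD route 1 of 12 tested genes was higher, 5 lower and 5 near (1, 9 and 1 after scaling). The gene higher was Kynu, a kynureninase, which rose by 2.19 ± 0.27, to 4.86 to 18.5 FPKM. Saline knockout already lay at 11.7 to 15.5 FPKM for Kynu in 5 of 6 libraries, and at 3.23 FPKM in the library that expressed Ddx3y. Haao fell by 0.66 ± 0.14, with 50.4 to 77.01 FPKM in glyoxylate knockout. Its saline knockout level was 107 FPKM in the library that expressed Ddx3y and 60.9 to 74.1 FPKM in the others. Kmo was near (-0.36 to 0.05) but called lower after scaling at -0.4.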
